A study of Homo sapiens with 84 samples.

Results

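The replication-dependent and linker histone genes were examined by chromatin accessibility in triple-negative breast cancer cell lines treated with tazemetostat, ipatasertib or both. The members were chosen by gene symbol (H1-1 to H1-6, or H2AC, H2BC, H3C or H4C followed by digits) and by the presence of a called peak within 10 kb of the annotated start site, so a member had to be accessible in some library. The sizes of the treatment responses had no part in that rule. The rule found 54 of 24455 genes with a peak in that window, and 147 peaks belong to them. They comprise 5 H1, 11 H2A, 15 H2B, 12 H3 and 11 H4 genes. At the window's edge, H2AC20 entered with its nearest peak 9004 bp from its start, and H2AC15 stayed out with its nearest peak at 10291 bp.

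The assay was Omni-ATAC-seq on 50000 cells per library, in which the transposase Tn5 cuts open chromatin. Tazemetostat inhibits EZH2, the methyltransferase of Polycomb repressive complex 2 (PRC2), and ipatasertib inhibits the AKT kinases. Of 84 libraries in the labels, 78 were analysed, in 26 groups of 3 replicates from 9 lines. MDA-MB-231, MDA-MB-468, SUM-149PT and SUM-159PT each had a vehicle group (DMSO), tazemetostat (labelled TAZ), ipatasertib (IPATA) and both agents (COMBO). The other 5 lines (HCC1143, HCC1395, HCC1937, BT-20 and BT-549) were given DMSO or both agents. Both agents were used at 5 uM. As the study describes it for MDA-MB-468, tazemetostat or DMSO was given from day -5, and medium with 2% FBS held ipatasertib, tazemetostat or both from day 0 until collection at 24 h. No other agent is named for any group, and each line is 1 established cell line. The labels do not say whether the replicates are separate cultures, and in 75 of 78 pairs of replicates the counts differed by no more than sampling noise. P-values from single libraries within a line therefore measure only the spread between those libraries. Comparisons over lines therefore count each line once.

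Library totals in peaks were 12292571 to 21459284 reads. Values are CPM, the reads in a gene's peaks within 10 kb scaled to the library's reads in peaks, and per kb of peak where genes are compared with each other. The third DMSO library of HCC1395 stands apart from the other 2 of its group at several members, and a paragraph on HCC1395 gives values without it. Over the DMSO groups, the summed level of the epithelial marker list was 39.9 to 351 CPM, that of the mesenchymal list 72.8 to 225 CPM, and that of the receptor genes ESR1, PGR and ERBB2 13.8 to 29.7 CPM. The endothelial and T-cell genes CD3E, PECAM1 and CDH5 together held 26.5 to 59.6 CPM in every line, and their part in the results was not tested.

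Replication-dependent histone genes supply the core histones that package newly copied DNA. They lack introns, are transcribed mainly in S phase, and give messages that end in a stem-loop in place of a poly(A) tail. The coactivator NPAT drives their transcription at nuclear histone locus bodies after phosphorylation by cyclin E and CDK2. The stem-loop binding protein SLBP and the U7 small nuclear RNA guide the cleavage of the messages. H2A, H2B, H3 and H4 form the nucleosome core, and H1 proteins bind the linker DNA between cores. Most of the genes lie in clusters on chromosomes 6 and 1, and many H2A and H2B genes are arranged head to head.

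In RefSeq promoters of build GRCh38.p14, running from 250 bases before to 50 bases after the start, 51 of the 54 members had an entry. The 4 motifs searched, on both strands, were the TATA box, the CCAAT box, the octamer and an H1 element, each spelled out at its count. The TATA box (TATAAA) occurred in 36 of 51 member promoters and in 11.95% of all 27305 promoters of that length. The CCAAT box, bound by nuclear factor Y, occurred in 44 of 51 against 35.7% of all promoters. It was in 5 of 5 H1, 11 of 11 H2A, 15 of 15 H2B and 10 of 10 H3 promoters, but in 3 of 10 H4 promoters. The octamer bound by POU2F1 (ATTTGCAT) occurred in 22 of 51 against 1.80% of all promoters, with 12 of 15 H2B and 9 of 11 H2A promoters among them. The H1 promoter element (AAACACA) occurred in 5 of 5 H1 promoters, in 7 of 51 overall and in 5.76% of all promoters. No matches overlap in the sequences printed next. H3C4 and H2AC7 have the same entry (chr6:26199244-26199543, minus strand), so the 51 promoters are 50 distinct sequences and 1 of them counts for both an H3 and an H2A gene. The windows of several head-to-head H2A and H2B pairs also overlap, so 1 genomic site can be counted for both genes. For example, the octamer at -46 of H2BC21 is the octamer at -197 of H2AC20, read on the opposite strand. TATA and CCAAT matches can be repeated in the same way, so the H2A and H2B counts are not of separate sites. These matches describe letters only, and show neither binding nor a cause.

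The promoters shown are those of H4C12 and H3C1, the members that fell in all 9 lines by the within-line tests with every library in, H2BC21, the H2B gene on chromosome 1 whose peak also covers the start of H2AC20, H1-3, a linker histone gene with a low level in 1 line, and H4C9, the H4 gene with the widest range of responses. Each runs 5′ to 3′ along the gene in lower case, and capitals mark the matched motifs on either strand.
H4C12 (chr6:27831511-27831810, minus strand): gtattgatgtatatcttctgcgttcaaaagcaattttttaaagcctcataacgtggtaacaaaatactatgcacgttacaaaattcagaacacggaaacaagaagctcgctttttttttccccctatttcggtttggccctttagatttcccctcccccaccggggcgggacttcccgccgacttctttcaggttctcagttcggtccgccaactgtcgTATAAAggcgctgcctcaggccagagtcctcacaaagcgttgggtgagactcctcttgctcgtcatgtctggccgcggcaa
H3C1 (chr6:26020201-26020500, plus strand): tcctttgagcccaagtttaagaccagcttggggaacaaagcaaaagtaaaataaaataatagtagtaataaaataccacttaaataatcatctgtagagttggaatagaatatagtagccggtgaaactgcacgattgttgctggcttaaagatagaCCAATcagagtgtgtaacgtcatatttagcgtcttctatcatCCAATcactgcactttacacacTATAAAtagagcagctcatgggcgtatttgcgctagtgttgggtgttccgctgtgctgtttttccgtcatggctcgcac
H2BC21 (chr1:149886633-149886932, minus strand): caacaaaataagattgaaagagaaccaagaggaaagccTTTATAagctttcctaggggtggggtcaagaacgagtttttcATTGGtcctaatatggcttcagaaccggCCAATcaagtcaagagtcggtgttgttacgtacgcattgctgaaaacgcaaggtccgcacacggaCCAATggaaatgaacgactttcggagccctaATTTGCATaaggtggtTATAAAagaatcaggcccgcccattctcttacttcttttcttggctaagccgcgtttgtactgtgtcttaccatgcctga
H1-3 (chr6:26234938-26235237, minus strand): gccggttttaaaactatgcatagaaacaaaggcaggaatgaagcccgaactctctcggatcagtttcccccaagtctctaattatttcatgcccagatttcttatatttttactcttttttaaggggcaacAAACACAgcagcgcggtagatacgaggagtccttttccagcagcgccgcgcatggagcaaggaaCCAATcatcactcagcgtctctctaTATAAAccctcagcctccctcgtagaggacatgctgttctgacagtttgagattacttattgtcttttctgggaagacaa
H4C9 (chr6:27139032-27139331, plus strand): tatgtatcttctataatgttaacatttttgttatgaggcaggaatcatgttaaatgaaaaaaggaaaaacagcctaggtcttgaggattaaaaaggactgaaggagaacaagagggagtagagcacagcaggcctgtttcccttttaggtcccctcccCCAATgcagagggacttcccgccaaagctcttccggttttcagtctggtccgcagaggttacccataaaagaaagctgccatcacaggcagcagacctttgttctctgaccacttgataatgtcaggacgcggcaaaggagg
H2BC21 holds the TATA box, a CCAAT box and the octamer at -30, -77 and -46 bases from its start on its own strand. H4C12 holds the TATA box at -31 and none of the other 3, and H4C9 holds a CCAAT box at -92 and none of the other 3.

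A gene's value here is that of its assigned peaks, and these are shared. A peak covered the annotated start in 39 of the 54 members, and 14 of those 39 peaks covered the start of 2 or more histone genes of the rule. In all, 11 of the 14 joined an H2A and an H2B gene, such as H2BC11 with H2AC11 and H2BC13 with H2AC13. Signal at such a peak cannot be divided between its genes. The deposited annotation gave each peak to 1 gene, so 8 members had their start under a peak assigned to a neighbour, among them H2AC13, H2AC11, H2AC6 and H3C4. Their own values come from other peaks, the nearest of which lay from 289 bp (H2AC13) to 9004 bp (H2AC20) from the start. The starts of 6 members (H3C14, H2AC18, H1-6, H4C7, H4C11 and H4C12) lay under no called peak. H4C9 has its RefSeq start under its own peak, which the deposited annotation puts 489 bp from the start. It is therefore not among the 39. RefSeq lists 69 protein-coding genes that match the rule, and 7 of the 15 that are not members had their start under a member's peak, for example H1-5 under that of H2AC16. Several histone genes have near-identical copies, and how reads that match more than 1 copy were treated is not given in the sources used here, so single-gene values are uncertain to that extent.

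In DMSO, the members differed widely in level between genes and between lines. Per kb of peak, the highest mean DMSO levels over the 9 lines were 22.0 CPM at H3C2 and 19.4 at H3C1 among H3 genes, 18.2 at H2AC17 and 16.2 at H2AC7 among H2A genes, and 17.4 at H2BC11 and 15.6 at H2BC21 among H2B genes. H4C2 and H4C8 led the H4 genes with 16.4 and 12.4 CPM per kb, and H1-2 and H1-4 the H1 genes with 13.0 and 11.4. The lowest levels per kb were 0.496 at H3C14, 0.555 at H2AC1, 1.09 at H2BC1, 1.18 at H2AC20, 1.73 at H4C7 and 1.73 at H1-6, the testis-type linker histone. H2AC1 and H2BC1, which are testis-type core histone genes, form a cluster of their own (chr6:25726063-25727345). The summed CPM of the 54 members ran from 696 to 713 in the 3 DMSO libraries of HCC1395 and from 1774 to 1846 in those of MDA-MB-468.

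**Figure D1:**
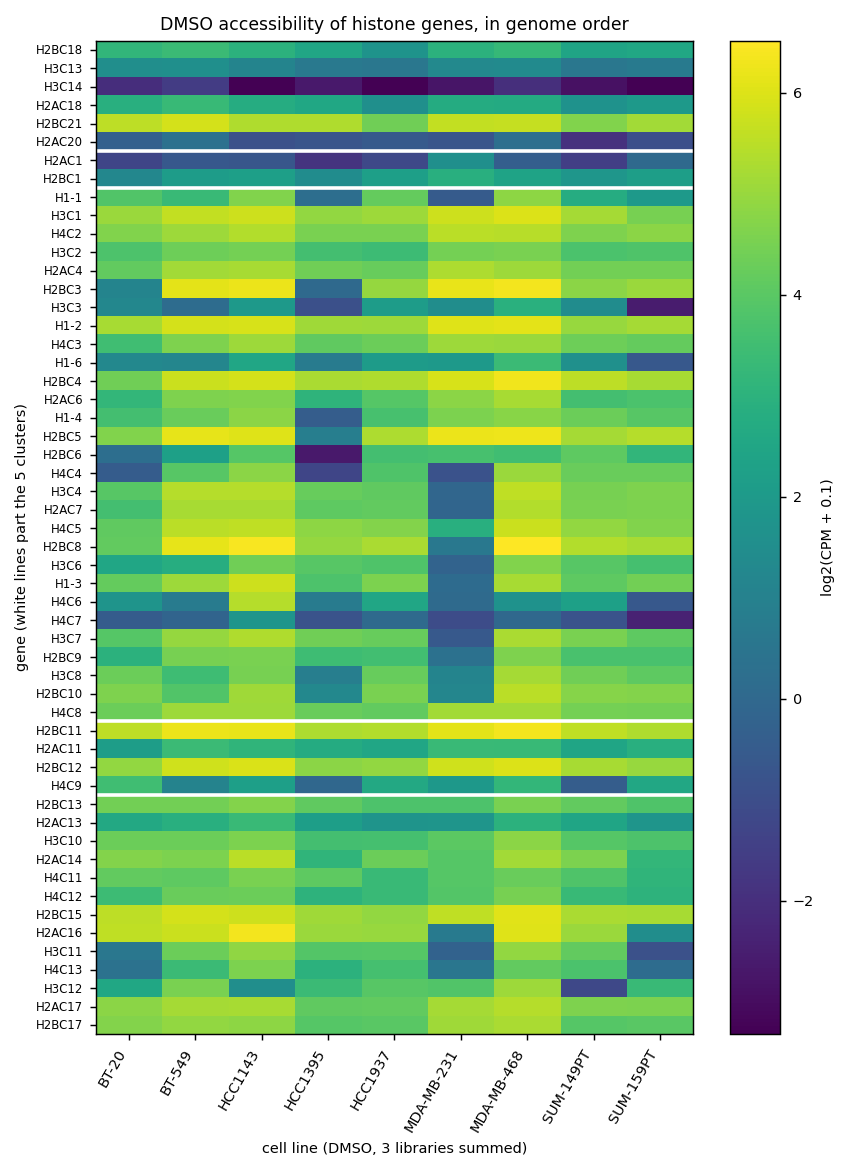
DMSO level of each member as log2(CPM + 0.1), by cell line in columns and by gene in genome order in rows, with white lines between the 5 clusters (chromosome 1 first, then 4 on chromosome 6). In MDA-MB-231 the 13 members from H4C4 to H2BC10 sum to 19.99 CPM, against 157 to 482 CPM in the other lines.

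Some members had very low counts in single lines. DNA copy number at these genes was not tested, so a low count here does not by itself show closed chromatin. Among the 50 members with a median of at least 1 CPM over the lines, 28 member and line pairs, of 20 members in 5 lines, were at or below 1/10 of the member's own median. MDA-MB-231 held 12 of the 28, HCC1395 held 7, BT-20 and SUM-159PT held 4 each and SUM-149PT held 1. H2BC3 read 0.666, 0.920 and 1.17 CPM in the 3 DMSO libraries of HCC1395 and 2.29, 1.62 and 2.36 CPM in those of BT-20, against a median of 33.1 CPM over the lines. H3C12 read 0.348, 0.175 and 0.466 CPM in SUM-149PT, against a median of 10.2 CPM. H2BC6 had 3 reads in all in the DMSO libraries of HCC1395, and H3C3 had 3 in those of SUM-159PT, so neither gives a usable ratio.

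The low members of MDA-MB-231 lay side by side. Of its 12, 9 fell in the run of 13 consecutive members from H4C4 to H2BC10, which spans 85 kb of chromosome 6 (chr6:26188710-26273412, RefSeq gene coordinates in GRCh38.p14) and was picked out after its levels were seen. The run summed to 19.99 CPM in MDA-MB-231, and its members ranged there from 0.388 to 7.37 CPM. In the other 8 lines the same run summed to 157 CPM in BT-20, 162 in HCC1395, 230 in HCC1937, 236 in SUM-159PT, 258 in SUM-149PT, 333 in BT-549, 477 in MDA-MB-468 and 482 in HCC1143. No other gene had a peak inside it. H4C5, within the run, was its highest member there at 7.37 CPM, against a median of 28.4 over the lines, and the members on either side of the run, H2BC6 and H4C8, were not among the low ones.

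With the combination, histone gene accessibility fell across the panel. Of the 53 members that passed the filter on low counts, 41 fell and 0 rose over the 9 lines (edgeR quasi-likelihood test, line as block, adjusted p under 0.05 over 23446 genes), which is 77.4% of those tested. Among all genes 17.8% fell and 10.7% rose in this comparison. The median log2 fold was -0.22 over the members and -0.02 over all genes tested. The members have high counts, so they were also set beside genes of like depth. The mean log2 CPM used here is that of the fit, scaled to the reads summed over genes and not to all reads in peaks. Among genes where it was 5 or more, 28.4% fell and the median was -0.05. Of the 35 members in that range 31 fell with a median of -0.21. H3C14, with 0 to 0.238 CPM in the DMSO groups, did not pass the filter. The count was 27 without BT-549 and 27 without HCC1143. In each of these fits 42 members were at an unadjusted p under 0.05, with 8581 of 23398 and 9049 of 23461 genes. In these bulk libraries, fewer cells with an open site and less opening per cell cannot be told apart.

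The fall was shared by lines as well as by genes. In 24 of the 53 members the log2 fold was below 0 in 9 of 9 lines, and in 46 it was below 0 in at least 7. The share of all genes below 0 in as many lines was not counted. By line, the median log2 fold of all genes ran from -0.10 in MDA-MB-468 to -0.0002 in HCC1937. Over all peaks that cover a start site, the 9-line median was -0.08. The 3 DMSO libraries of a line always summed above its 3 combination libraries. The summed CPM of the members fell by 32.6% in MDA-MB-468, 21.8% in SUM-159PT, 18.6% in HCC1143, 15.5% in HCC1937, 15.5% in BT-549, 11.1% in BT-20, 9.46% in SUM-149PT, 7.99% in HCC1395 and 7.45% in MDA-MB-231. These sums are scaled to reads in peaks, without the further normalisation of the log2 folds. In SUM-159PT, H3C1 went from 22.8 to 17.6 CPM, while its normalised log2 fold was -0.26. The percentages therefore cannot be set beside the all-gene medians above, and the CPM change of all genes was not computed.

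**Figure D2:**
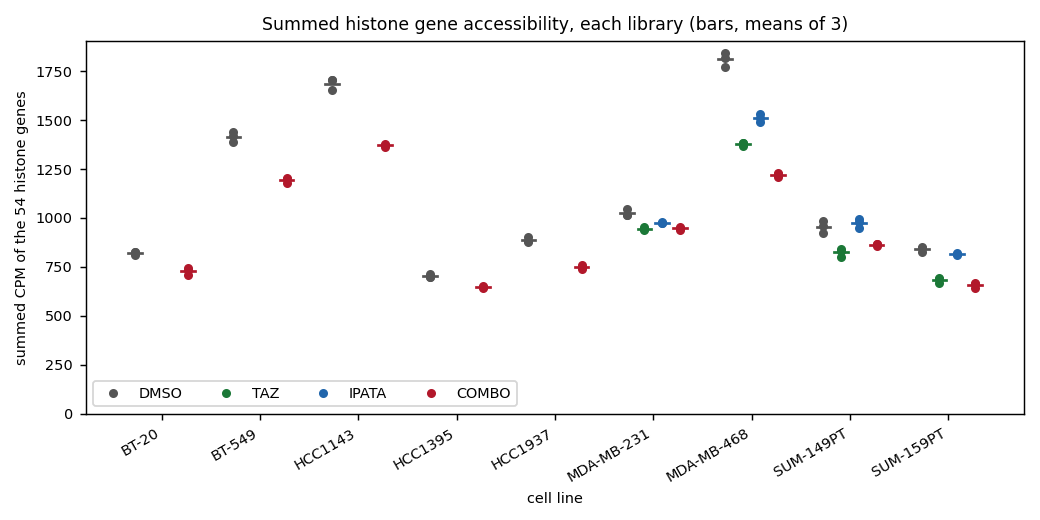
Summed CPM of the 54 members in each library (points) and the mean of each group of 3 (bars), by cell line and treatment. The 3 DMSO libraries of MDA-MB-468 lie at 1774 to 1846, its TAZ libraries at 1370 to 1385, its IPATA libraries at 1489 to 1531 and its COMBO libraries at 1208 to 1228.

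All 5 classes took part. Among linker histone genes, 4 of 5 fell. H1-2, a broadly expressed linker histone, ran from 31.9 to 69.0 CPM over the DMSO groups with a median of 37.4, and its log2 fold was -0.15 ± 0.03 (SE, 9 lines, adjusted p = 0.00857). H1-6 had the largest fall of the called members at -0.67 ± 0.20 (adjusted p = 0.0308), from DMSO levels of only 0.552 to 10.2 CPM. H1-4 did not pass, at -0.07 ± 0.08 (adjusted p = 0.510).

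Among H2A genes 7 of 11 fell, and among H2B genes 13 of 15. H2AC13, H2AC14 and H2AC18 had the largest H2A falls, with log2 folds of -0.49 ± 0.12, -0.40 ± 0.09 and -0.40 ± 0.09 (SE, 9 lines). H2AC14 ran from 8.46 to 45.4 CPM over the DMSO groups and from 5.32 to 32.9 CPM over the combination groups, and it was lower with the combination in 9 of 9 lines. H2BC11 and H2BC21, the most accessible H2B genes per kb, had log2 folds of -0.23 ± 0.04 and -0.22 ± 0.03 (adjusted p = 0.00341 and 0.00337). H2BC21 ran from 20.7 CPM in HCC1937 to 59.0 CPM in BT-549 with DMSO, and was lower with the combination in 9 of 9 lines. H2BC1 and H2AC1, the testis-type pair, had values above 0 at 0.27 ± 0.16 and 0.18 ± 0.30 and did not pass (adjusted p = 0.222 and 0.667).

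Among H3 genes 8 of 11 tested fell, and among H4 genes 9 of 11. The DMSO levels of H3C1 ran from 22.8 to 63.7 CPM, H3C1 fell within each of the 9 lines with every library in, and its 9-line log2 fold was -0.21 ± 0.03 (adjusted p = 0.00246). H4C12 had the smallest adjusted p of the members (0.00229), at -0.52 ± 0.07. Its level fell from 10.8 to 8.62 CPM in BT-20, 19.0 to 14.2 in BT-549, 19.9 to 12.03 in HCC1143, 8.17 to 5.93 in HCC1395, 10.1 to 6.40 in HCC1937, 14.7 to 10.8 in MDA-MB-231, 22.8 to 12.4 in MDA-MB-468, 9.72 to 7.73 in SUM-149PT and 8.16 to 4.81 in SUM-159PT. Its neighbour H4C11 had -0.42 ± 0.06 and H4C7 -0.47 ± 0.16 (adjusted p = 0.00337 and 0.0454). H4C7 is a weak gene, with a DMSO median of 0.621 CPM. Of the called members named here, H1-1, H1-6, H2AC17, H2BC18, H3C2, H3C8 and H4C7 each lost the call when some single line was left out, with log2 folds still below 0 and adjusted p up to 0.120.

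**Figure D3:**
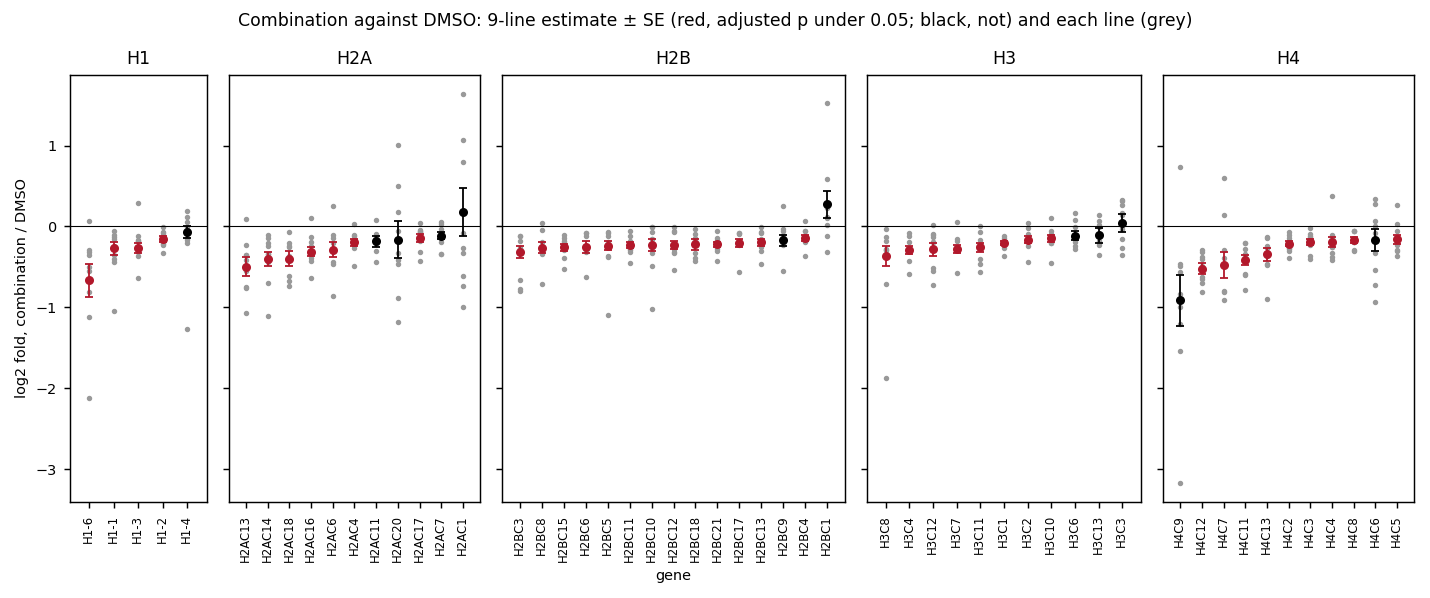
Log2 fold of the combination over DMSO for the 53 tested members, by class: the 9-line estimate with its standard error (red, adjusted p under 0.05; black, not) and the value in each of the 9 lines (grey). The estimates of 50 members lie below 0, and H4C9 and H1-6 reach -3.17 and -2.12 in MDA-MB-468.

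The members that fell were spread over the clusters. All 13 members of the cluster at chr6:27807479-27893891 fell, with a median log2 fold of -0.28. In the largest cluster, of 29 members, 23 fell with a median of -0.21. In the clusters of 4 members on chromosome 6 and of 5 tested members on chromosome 1, 2 and 3 fell. Another 33 genes with peaks lie between the first and last member on chromosome 6. Of these 7 fell, or 21.2%, and 1 rose, with a median of -0.05. Among all genes 17.8% fell and 10.7% rose. The largest called changes among these neighbours were those of LOC105374985 at -0.64 ± 0.17, LOC100270746 at -0.17 ± 0.05, LOC101928743 at -0.16 ± 0.04, HMGN4 at -0.16 ± 0.02 and LOC105375001 at -0.14 ± 0.03.

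The size of the fall differed between lines. In tests within each line, 230 of 450 member and line pairs fell and 9 rose, where 14.8% of all gene and line pairs fell. By line, 47 of 53 tested members fell in MDA-MB-468, where 21.7% of all genes fell. In HCC1143 43 of 51 fell against 14.3% of all genes, in BT-549 35 of 52 against 19.2%, and in HCC1937 29 of 52 against 13.0%. In SUM-159PT 24 of 47 fell against 21.1% of all genes, in HCC1395 16 of 45 against 13.4%, in BT-20 17 of 51 against 9.47%, and in SUM-149PT 12 of 49 against 10.6%. MDA-MB-231, with 7 of 50 against 10% of all genes, was near its background. The response differed between lines for 48 of 53 members (edgeR F test of the interaction, fitted to single libraries), but so it did for 73.7% of all genes. The 9 rises were 5 in MDA-MB-231, 2 in SUM-159PT and 1 each in HCC1395 and SUM-149PT, where 15.2%, 27.9%, 16.8% and 16.9% of all genes rose. The median log2 fold of the members ran from -0.10 in MDA-MB-231 to -0.48 in MDA-MB-468, where the median of all genes was -0.02 and -0.10.

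H4C9 had the widest range of any tested member. Its 3 DMSO libraries in MDA-MB-468 read 8.53, 9.42 and 9.59 CPM and its combination libraries 0.857, 0.860 and 1.12 CPM, a log2 fold of -3.12 ± 0.15 in the within-line edgeR test (adjusted p = 4.98e-41). In MDA-MB-231 it went the other way, from 4.75, 3.35 and 2.88 CPM to 4.41, 6.90 and 6.56 CPM, a log2 fold of 0.76 ± 0.17 (adjusted p = 0.00107), with the highest DMSO library above the lowest combination library. Over the 9 lines H4C9 was lower in 8, and its estimate of -0.91 ± 0.32 missed the threshold (adjusted p = 0.0509), while without MDA-MB-231 it was -1.13 (adjusted p = 0.0223). H1-6 fell in MDA-MB-468 from 11.1, 10.9 and 8.64 CPM to 2.41, 2.21 and 2.06 CPM (-2.04 ± 0.12, adjusted p = 2.15e-32), whereas SUM-149PT gave 0.07 ± 0.16 (adjusted p = 0.791).

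The testis-type pair rose in SUM-159PT. The peak over the starts of both genes counts for H2AC1. The value of H2BC1 comes from 9 other peaks, the nearest 2463 bp from its start. H2BC1 read 4.08, 4.45 and 4.87 CPM with DMSO and 13.5, 11.4 and 11.3 CPM with the combination there, a log2 fold of 1.60 ± 0.10 in the within-line edgeR test (adjusted p = 6.13e-29). H2AC1 rose in the same line from 0.716, 0.862 and 1.15 CPM to 2.41, 3.10 and 2.67 CPM (1.74 ± 0.23, adjusted p = 9.58e-11). Tazemetostat alone gave 1.57 ± 0.10 at H2BC1 and 1.72 ± 0.23 at H2AC1 in SUM-159PT (adjusted p = 4.94e-28 and 1.70e-10), and ipatasertib alone 0.11 ± 0.14 and 0.04 ± 0.31, which did not pass. In MDA-MB-231, H2AC1 rose as well, by 0.82 ± 0.15 with the combination and 1.10 ± 0.14 with tazemetostat.

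Some HCC1395 values rest on 1 library. At H1-4 the 3 DMSO libraries of HCC1395 read 0.242, 0.115 and 1.59 CPM, and the combination libraries 0.372, 0.317 and 0.0644 CPM, so the groups overlap. The log2 fold of H1-4 in that line was -1.26 with the third DMSO library and 0.41 without it. H3C8 had -1.87 with it and -1.20 without it, H1-1 -1.04 and -0.30, H2BC5 -1.10 and -0.22, H2BC10 -1.02 and -0.02, and H4C9 -1.21 and -0.01. At H2BC6, which had only 3 reads in those DMSO libraries, it had -0.29 and 0.23. These 7 members were the ones that moved by over 0.5. At H1-4, H2BC5, H2BC10, H1-1, H3C8, H4C9 and H2BC6 the DMSO level of BT-20 was 11.7, 25.2, 24.3, 14.1, 19.9, 11.2 and 1.08 CPM. In that order, their highest DMSO levels were 27.65 in HCC1143, 76.9, 45.3, 28.9 and 36.8 in MDA-MB-468, 11.2 in BT-20 and 16.55 CPM in SUM-149PT. Why the third library differs was not tested. The median of the members in HCC1395 was -0.19 with the library and -0.15 without it, and 39 members fell over the 9 lines without it. Without the library, 45 of 53 members and 9700 of 23411 genes were at an unadjusted p under 0.05 over the 9 lines. Without it, the members' summed CPM in HCC1395 fell by 7.29%, the run from H4C4 to H2BC10 summed to 164 CPM, and 9 members in that line, or 30 pairs of 21 members over the 9 lines, were at or below 1/10 of their median. In the within-line edgeR test without it, 17 of 45 members fell and 1 rose in HCC1395, where 12.9% of all genes fell. H3C1 then lost its call in that line (adjusted p = 0.111) and H4C12 kept it (adjusted p = 0.000411).

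Each agent alone was tested in the 4 lines that had both, with all 4 treatments in the fit. With tazemetostat 16 members fell and 0 rose, 30.2% of 53, where 18.7% of all genes fell and 9.86% rose. The median log2 fold was -0.17 over the members and -0.02 over all genes. The largest called falls were those of H4C12 (-0.38 ± 0.09), H4C11 (-0.30 ± 0.09), H1-1 (-0.28 ± 0.08) and H2BC15 (-0.27 ± 0.06), with adjusted p of 0.0140, 0.0278, 0.0302 and 0.0104. This count depended on the samples in the fit: it was 0 with only the DMSO and tazemetostat groups, 0 without SUM-159PT, 2 without MDA-MB-468, 4 without SUM-149PT and 7 without MDA-MB-231.

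With ipatasertib 0 members and 0.0% of all 23907 genes passed over the 4 lines in edgeR, and DESeq2 called 0 members as well. At an unadjusted p under 0.05 stood 3 members, all lower, and 537 genes. With only the DMSO and ipatasertib groups in the fit, 20 of 53 members and 2965 of 23310 genes were under that p, and still 0 members passed the adjusted threshold. The other alternatives gave 1 to 9 members under it. The median was -0.08 over the members and 0.00 over all genes. With the combination in the same 4 lines, 25 members fell and 0 rose, 47.2% of 53, against 12.5% and 7.37% of all genes, with a median of -0.23. That count was 0 with only the DMSO and combination groups in the fit, 2 without SUM-159PT, 3 without MDA-MB-468 and 16 without MDA-MB-231. The single-agent and combination contrasts share their DMSO libraries. The non-additive term, which asks whether the combination differed from the sum of the 2 single responses, passed for 0 members and 0.0% of all genes in edgeR, for 0 members in DESeq2, and at an unadjusted p under 0.05 for 0 members and 63 genes. Its median over the members was 0.02.

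**Figure D4:**
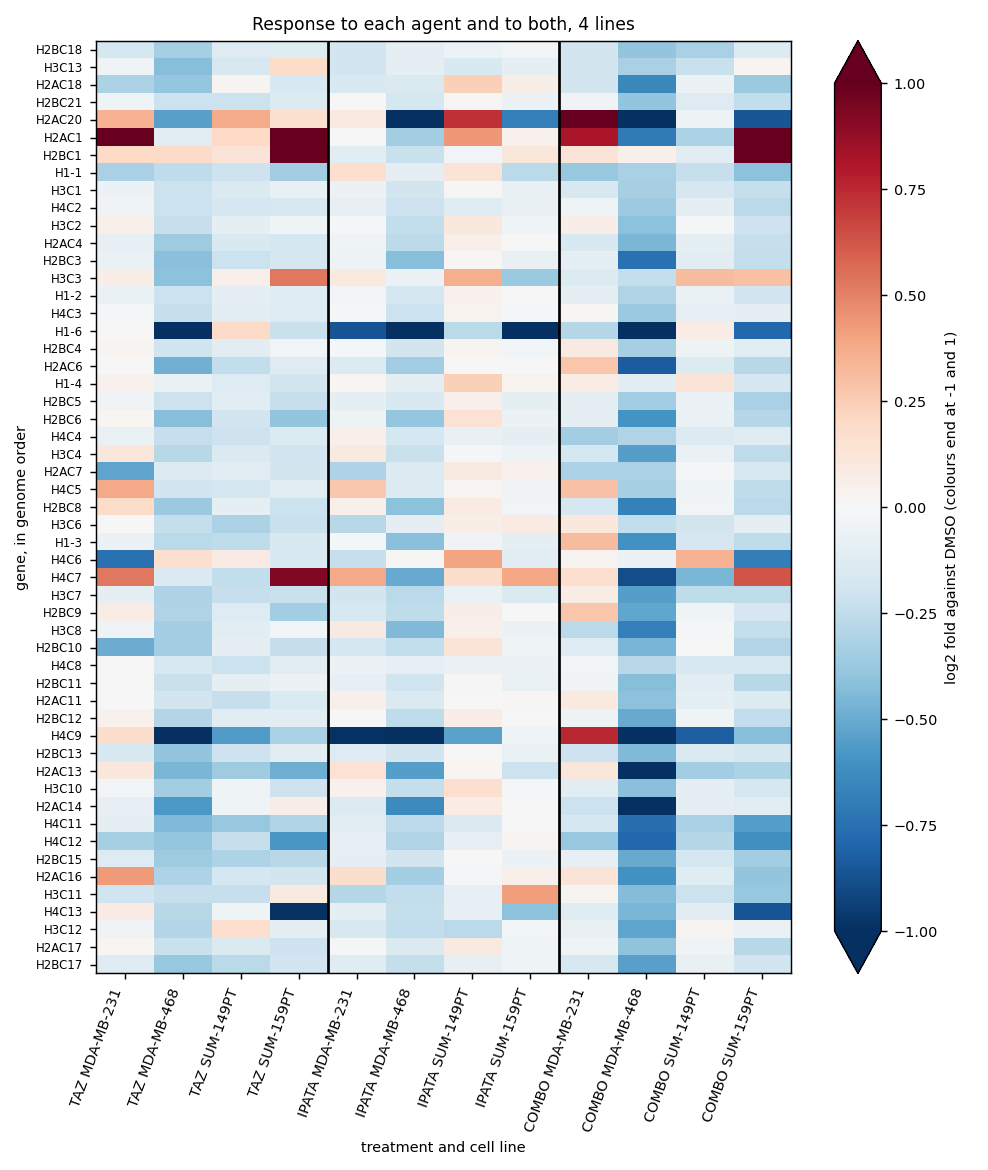
Log2 fold against DMSO for the 53 tested members (rows, in genome order) with tazemetostat, ipatasertib and both, in each of 4 lines (columns); colours end at -1 and 1. The MDA-MB-468 columns are lower than those of the other lines, with member medians of -0.29, -0.24 and -0.48 for the 3 treatments.

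In MDA-MB-468 the histone genes fell with ipatasertib as well. There, 40 of 53 members fell and 0 rose with ipatasertib alone (edgeR within the line, on 3 libraries a group), where 3.9% of all 22506 genes fell. Of the 20 genes with the smallest p in that comparison, 8 were members, all lower: H2BC3, H2BC8, H2AC14, H4C9, H1-6, H2AC16, H3C8 and H1-3. Of the first 100, 14 were members, where members are 0.2355% of the genes tested. With tazemetostat or the combination in that line, 0 of the first 100 were members. The part of count depth in this ranking was not tested. In SUM-149PT ipatasertib gave 0 of 49 members lower and 2 higher, where 2.9% of all genes fell and 2.07% rose. In SUM-159PT 0 of 47 changed, where 0.519% of all genes fell, and in MDA-MB-231 1 of 50 fell (H1-6) and 0 rose, where 0.148% fell. Whether the lines differ in their ipatasertib response was not tested.

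Single members show the pattern in MDA-MB-468. H2BC3 read 81.2, 81.8 and 80.4 CPM with DMSO, 58.3, 60.7 and 60.8 with ipatasertib, 56.5, 56.4 and 56.4 with tazemetostat, and 47.1, 44.8 and 44.7 with the combination. Every treated library lay below every DMSO library, and the 3 combination libraries were the lowest. The within-line log2 folds of H2BC3 were -0.45 ± 0.03 with ipatasertib, -0.34 ± 0.03 with tazemetostat and -0.68 ± 0.03 with the combination (adjusted p = 1.45e-29, 7.09e-23 and 1.49e-45). H2AC14 read 34.0, 37.1 and 36.5 CPM with DMSO, 22.3, 23.4 and 22.9 with ipatasertib, 22.3, 21.7 and 23.1 with tazemetostat, and 16.4, 14.9 and 16.5 with the combination. H4C9, at 8.53 to 9.59 CPM with DMSO, had log2 folds of -1.73 ± 0.11 with ipatasertib, -1.30 ± 0.11 with tazemetostat and, as given above, -3.12 with the combination. H1-4 stayed nearer to its DMSO level, at 26.5, 28.0 and 27.1 CPM with DMSO and 25.4, 24.8 and 25.2 with ipatasertib.

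Tazemetostat alone lowered 43 of 53 members and raised 1 in MDA-MB-468, where 26.9% of all genes fell and 27.5% rose. In SUM-149PT it lowered 20 of 49 members, where 9.88% of all genes fell. In SUM-159PT it lowered 14 of 47 and raised 2, against 21.6% of all genes lower and 28.1% higher. In MDA-MB-231 it lowered 2 of 50 and raised 2, against 10.3% and 15.5% of all genes.

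The fall was not limited to the peaks over the start sites. Each peak was tested on its own over the 9 lines, and 44 of 123 tested member peaks fell and 0 rose, against 2.72% of all 410603 peaks. Of 39 peaks over a start, 17 fell with a median log2 fold of -0.24, where 5.22% of all such peaks fell with a median of -0.08. Of 17 peaks between the start and 1 kb, 6 fell with a median of -0.35, where 5.38% of all fell. Of 67 peaks between 1 kb and 10 kb, 21 fell with a median of -0.46, where 3.87% of all fell with a median of -0.05. Depth moved with distance: the median log2 CPM of these member peaks was 4.13 over the start, 1.22 up to 1 kb and 0.42 beyond, and its part in the larger folds was not tested.

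**Figure D5:**
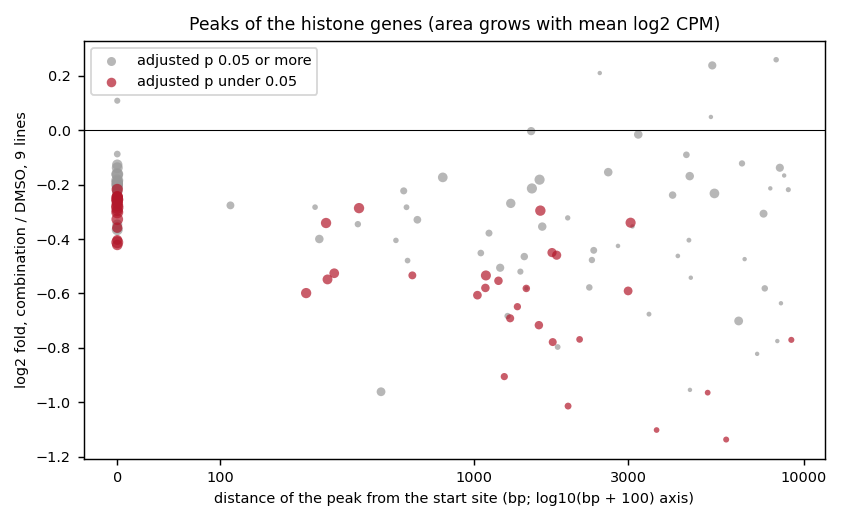
Log2 fold of the combination over DMSO (9 lines) for each of 123 tested member peaks against its distance from the start site, on a log10(bp + 100) axis; red, adjusted p under 0.05; point area grows with mean log2 CPM. Median folds are -0.24 over the start and -0.46 from 1 kb to 10 kb, where the peaks are also weaker.

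By gene, the 39 members with a peak over their start in the deposited annotation had 32 falls and a median of -0.21. The 14 tested members without one, with H4C9 among them, had 9 falls and a median of -0.34. Among all genes tested 17.8% fell, and their share was not counted by presence of such a peak. Of the 8 called members with the largest falls, H1-6, H4C12, H4C7, H4C11 and H2AC18 had their start under no peak, and that of H2AC13 lay under the peak of H2BC13. With peaks within 1 kb only, 30 of 45 members fell. In that fit 36 of 45 members and 7616 of 18159 genes were at an unadjusted p under 0.05. The medians were -0.17 over the members and -0.01 over all genes.

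Histone genes outside the replication-dependent set were set beside the members. Of 11 tested replication-independent histone genes, 2 fell and 0 rose with the combination over 9 lines, with a median of -0.07. The share that fell was 18.2%, where 17.8% of all genes and 28.4% of genes with a mean log2 CPM of 5 or more fell. This list and the regulator and chaperone lists below were not matched to other genes for depth. The 2 that fell were MACROH2A1 at -0.15 ± 0.05 and H2AZ2 at -0.07 ± 0.02 (adjusted p = 0.0326 and 0.0262). H3-3A and H3-3B, which encode the replacement histone H3.3, had -0.05 ± 0.02 and -0.11 ± 0.04 and did not pass (adjusted p = 0.0702 and 0.0668). The largest changes of the list were upward and did not pass either. They were those of H2BW1 at 0.80 ± 0.32 and MACROH2A2 at 0.51 ± 0.20 (adjusted p = 0.077 and 0.074). H2BW1 was weak, at 0.626 to 2.33 CPM over the DMSO groups.

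Of 19 tested regulators of histone gene transcription and message processing, 11 fell and 0 rose, with a median of -0.12. The share that fell was 57.9%, against 17.8% of all genes and 28.4% of genes with a mean log2 CPM of 5 or more. The largest called falls were those of CCNE2, encoding cyclin E2, at -0.42 ± 0.12, CPSF3, the nuclease that cleaves histone messages, at -0.35 ± 0.12, RNU7-1, the U7 RNA gene, at -0.25 ± 0.05, and CSTF2T and LSM10, a U7 particle subunit, at -0.17 ± 0.04 each. CCNE2 and CPSF3 were weak, at 0.759 to 5.00 and 0.452 to 5.56 CPM over the DMSO groups. NPAT and SLBP fell by 0.09 ± 0.02 and 0.13 ± 0.03 on the log2 scale (adjusted p = 0.0199 and 0.00916).

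Of 14 tested histone chaperones, 11 fell and 0 rose, with a median of -0.12. The share that fell was 78.6%, against 77.4% of the members, 17.8% of all genes and 28.4% of genes with a mean log2 CPM of 5 or more. RBBP4 had -0.72 ± 0.16 from a DMSO level of 0.414 to 1.77 CPM, SUPT16H, a subunit of the FACT complex, -0.21 ± 0.03, and UBN1, NASP, which binds free H3 and H4, and HJURP -0.15 ± 0.04, -0.15 ± 0.03 and -0.14 ± 0.03. With ipatasertib in MDA-MB-468, 0 of 13 chaperones, 2 of 18 regulators, 2 of 11 replication-independent histone genes and 8 of 33 neighbours on chromosome 6 fell, with medians of 0.02, -0.01, 0.00 and -0.07. The members' median there was -0.24, and 3.9% of all genes fell.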

How the data were processed

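Libraries were made from transposed nuclei by Omni-ATAC-seq, per the labels' protocols. The deposited table holds raw read counts per peak for 861439 peaks in 78 libraries, and a deposited annotation gives each peak 1 gene and its distance to the start site. Per the submitters' processing notes, MACS2 and featureCounts were used on hg38. The aligner, duplicate removal, the shift for Tn5 and the treatment of reads that match several places are not stated in the labels, and the last could move counts between near-identical histone genes. The 6 libraries of HCC1806 in the labels were not analysed here.

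Counts of peaks within 10 kb of a start were summed per gene (24455 genes). For comparisons over lines, the 3 replicates of each line and treatment were summed and edgeR 4.0.16 (R 4.3.3) was run with TMM factors, robust quasi-likelihood and line as block, after filterByExpr with a minimum count of 10. P-values were adjusted by Benjamini-Hochberg over all genes tested, with a threshold of 0.05. Estimates ± SE over lines come from that fit, and those for 1 line from the within-line tests. The 9-line fit held DMSO and combination, and the 4-line fit all 4 treatments. Within-line tests and the F test of line by treatment used single libraries. Folds of single lines use log2 CPM with a prior count of 2. Replicate numbers did not pair the libraries: 0 of 27 correlations of deviations between same-numbered libraries were over 0.1 (-0.141 to 0.0564).

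The members, the comparison lists and the motifs were chosen with earlier results of these data known. Members are named by a rule: the 2 highest and 2 lowest DMSO levels per kb in each class, the largest called changes in each comparison, and the widest range over lines in each class. Other members, such as those of the run in MDA-MB-231 and those that rest on 1 HCC1395 library, were named after their values were seen. Promoter sequences and gene coordinates are those of RefSeq on GRCh38.p14; 54 of 54 symbols matched.

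Tested on simulated data, the 9-line fit on 23464 genes recovered 55.2% of 1.25-fold and 100% of 1.5-fold changes with 9 false calls. The 4-line fit on 23944 genes recovered 10.4% of 1.25-fold and 67.2% of 1.5-fold changes with 3 false calls. Changes were planted only in genes with high counts, equal in every line, with the same spread for all genes. These rates do not cover weak members or responses that differ between lines. Alternatives covered normalisation, test, filter, gene window, samples in the fit, a replicate block, and leaving out replicates, lines and the third DMSO library of HCC1395.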

Additional observations from a re-analysis of the deposited data

Results flagged for a closer look

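Log2 folds over 9 lines were checked for a line far from the others in 29 sets of values. The check found 5 such lines, where chance alone gives about 1 in 20 for sets not picked by their values. H3C8 and H2BC1, both flagged, had been named for a wide range over lines, so that rate does not hold for them. The HCC1395 values of H1-1 (-1.04), H1-4 (-1.26) and H3C8 (-1.87) lay far below those of the other lines, and without the third DMSO library of HCC1395 they were -0.30, 0.41 and -1.20. The SUM-159PT value of H2BC1 (1.52) lay far above those of the other lines. The median log2 fold of the members in MDA-MB-468 (-0.48) lay far below those of the other lines.

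The combination response differed between lines for 48 of 53 members by the F test on single libraries, a test that also called 73.7% of all genes.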

How the results depend on the processing

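Of 99 counts of members under alternatives, 84 stayed within 1.5 times the value reported, and no alternative across lines made any member rise. For the combination over 9 lines the 41 members became 27 without BT-549 and 27 without HCC1143, and 34 to 40 with 1 replicate left out. For tazemetostat the 16 members became 10 with total counts only, 8 with peaks within 1 kb, 7, 2, 4 and 0 without MDA-MB-231, MDA-MB-468, SUM-149PT and SUM-159PT, 0 with only the groups compared in the fit, and 9 to 18 with 1 replicate left out. For the combination in 4 lines the 25 members became 16, 3 and 2 without MDA-MB-231, MDA-MB-468 and SUM-159PT, 0 with only the groups compared in the fit, and 21 to 29 with 1 replicate left out. Fits with fewer lines or groups have fewer samples to estimate the spread; for the other settings the cause was not tested. Ipatasertib and the non-additive term gave 0 members under every alternative run. DESeq2 called 43, 24 and 35 members for the combination over 9 lines, tazemetostat and the combination in 4 lines. Abundance-trended offsets, added for the 4-line fits after seeing the data, gave 21 and 30 for the last 2. At an unadjusted p under 0.05, DESeq2 had 46, 34 and 40 of 53 members for its comparisons, in the order above. Among all genes it had 9692 of 23446, 11295 of 23907 and 9737 of 23907. The shares of all genes called at the adjusted threshold under the alternatives are not given here.

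With a replicate block, 240 member and line pairs were called within lines, against 239, and 48 members by line and treatment, against 48; the replicate numbers share only a name. Leaving out 1 replicate gave 192 to 199 pairs and 34 to 42 members in these tests. Of 559 values of 27 named members, 491 kept their direction and their side of the threshold, 60 lost the call, 6 gained it and 2 changed sign: H2AC1 became -0.076 without SUM-159PT and H2AC20 0.0074 without MDA-MB-468, neither called in any of these fits. The non-additive term needs all 4 groups, so its fit with only the groups compared was not run. Depth limits the weakest members most, since H3C14 could not be tested and H4C7 had a DMSO median of 0.621 CPM.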
